A study of Danio rerio with 20 samples.

Results

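Among zebrafish leukemias labelled high for self-renewal, those whose sample titles run to 3 or more numbers were compared across all genes with those whose titles hold 2 numbers. Titles were read without their final letter, and the libraries of a tumor were summed. The longer-title group held tumors 4.3.1, 7.2.1, 13.1.1, 14.1.1.1 and 8.4.1.1.1 (8 libraries). The short-title group held tumors 2.1, 8.3 and 15.2 (6 libraries). Together they made up 14 of the 20 libraries and 8 of the 11 tumors of the series. The other 3 tumors, 9.2, 10.2 and 12.2 (6 libraries), were labelled low for self-renewal and all had titles of 2 numbers, so they enter below only as levels beside the 8 high tumors. What the numbers in a title stand for, transplant rounds or anything else, was not given in the sources used here.

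All samples were leukemia cells from blood of CG1 zebrafish, a clonal strain whose fish accept each other's cells, and polyadenylated RNA was sequenced in bulk. Self-renewal here is the share of leukemia cells able to start a new leukemia, and the series text sets the split between high and low at 1% of cells. That text counts 6 high and 5 low leukemias, whereas the sample labels give 8 and 3, and the labels were followed. The sources used here do not give the oncogene, the fish's age, any treatment or whether tumors came from separate fish, so each p-value reflects only how much these tumors vary.

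A cell copies its DNA once per division. Proteins of the origin recognition complex, with CDC6 and CDT1, load the MCM helicase at origins, after which the GINS proteins activate the helicase and polymerases copy both strands on the PCNA clamp. Genes for these proteins are largely switched on in late G1 by E2F transcription factors, whereas genes for mitosis peak later in the cycle. RB proteins hold E2F factors back until cyclin kinases act, among them cyclin D with CDK4 or CDK6 and cyclin E with CDK2. In leukemias the level of replication and mitosis transcripts in bulk RNA follows, among other things, how many of the cells are cycling.

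The high libraries held 7810645 to 16951341 counts. Summed per tumor, totals averaged 17940000 ± 5680000 in the longer-title group and 24240000 ± 7131000 in the short-title group (SD, n = 5 and 3; exact permutation test, two-sided, p = 0.321, adjusted p = 0.500 over 4 single values; the smallest p that the 56 splits allow is 0.0357). Tumors 14.1.1.1 and 8.4.1.1.1, both with longer titles, had 1 library each and the other 6 high tumors had 2. Tumor 8.3 stood apart from the other 7, at 137.9 on the first principal component (27.38% of variance) against -43.83 to 41.53, so results that rest on it are also given without it. Tumors 8.3 and 8.4.1.1.1 share the first number of their titles, and the labels do not state their relation. Their log2 CPM correlated at 0.8743, while the highest correlation between any pair of high tumors, 0.9292, was between 13.1.1 and 2.1, across the title groups. All 8 tumors carried T-lineage transcripts, with summed marker levels of 3340 to 3910 CPM (counts scaled to a common library size) in the longer-title group and 3680 to 4060 CPM in the short-title group, against 31.0 to 895 CPM in the low tumors. Summed B-lineage markers were at 5.91 to 43.4, 7.82 to 19.2 and 502 to 1780 CPM in the same order, so the lineage of the cells and the self-renewal label move together between high and low tumors, but not between the title groups.

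No gene was called between the title groups. Of 15221 genes tested, 0 (0.00%) had an adjusted p under 0.05 by the quasi-likelihood test of edgeR after Benjamini-Hochberg adjustment, and the smallest adjusted p was 0.0986, for tmeff1b. An expression filter, which kept genes passing a low level in at least 3 tumors, let tmeff1b in only through the short-title tumors. Its p therefore carries that selection. At an unadjusted p under 0.05, 579 genes were higher in the longer-title tumors (3.80% of genes tested) and 448 were lower (2.94%). The 2 groups of tumors did not overlap for 404 genes that were higher (2.65%) and 233 that were lower (1.53%). For lower genes near 0 in all longer-title tumors, the expression filter fixed this in advance. Higher genes under the filter's level in all short-title tumors entered the test only through the longer-title tumors. The p-values of both kinds of gene carry that selection. DESeq2 called 190 genes higher (1.20% of the 15841 with an adjusted p) and 74 lower (0.467%), and limma-voom called 0. The median log2 fold change, longer titles over short, was -0.03, and 47.3% of genes lay above 0. All further fold changes run in that direction, with a standard error (SE) over 5 against 3 tumors, and adjusted p is edgeR's over all genes tested.

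Genes of DNA replication, its onset and DNA repair were frequent among the higher genes with the smallest p. Of the 50 genes with the smallest p among those higher, 21 belonged to a list of DNA replication genes, 3 to DNA repair and 3 to G1 cyclins and inhibitors, 27 in all (54.0%). The same lists together with mitosis hold 138 of all genes tested (0.907%). Of the 579 genes higher at an unadjusted p under 0.05, 73 (12.6%) stood on one of these 4 lists, and of the 448 lower genes 0 did. Of the DESeq2 calls, 49 of the 190 higher genes (25.8%) and 0 of the 74 lower genes did. The 4 lists share no member.

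Of 43 DNA replication genes tested, 39 were higher at an unadjusted p under 0.05 in the longer-title tumors, 0 were lower, and 36 had groups that did not overlap. Set beside 3.80% and 2.65% of all genes, these were most of the list. The median log2 fold change of the 43 was 1.87, within a range of -0.35 to 2.98, and 42 were above 0. DESeq2 called 30 of them, edgeR and limma-voom 0. In bulk RNA, fewer cells in S phase and less of these transcripts per cell cannot be told apart. Where the groups did not overlap, the lowest longer-title tumor lay a median of 1.38 times and at most 3.36 times above the highest short-title tumor. In the text that follows, levels are in CPM and stand in the order of tumors 4.3.1, 7.2.1, 13.1.1, 14.1.1.1 and 8.4.1.1.1 with longer titles, then 2.1, 8.3 and 15.2 with short titles.

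Of 8 genes of origin recognition and licensing, 7 were higher at an unadjusted p under 0.05, with a median log2 fold change of 1.56 over the 8 (1.13 to 2.75). CDC6 (ENSDARG00000009942), the loader that brings the MCM helicase to the origin, had 47.3, 24.2, 23.5, 21.1 and 14.2 CPM in the longer-title tumors, against 4.21, 3.54 and 3.89 CPM in the short-title tumors. Its log2 fold change was 2.75 ± 0.42 (SE; adjusted p = 0.220; DESeq2 adjusted p = 2.40e-07), and every longer-title tumor lay above every short-title tumor by the widest margin of the list. ORC1 (ENSDARG00000039217), a subunit of the origin recognition complex, had 59.3, 60.8, 33.5, 60.3 and 44.8 CPM in the longer-title tumors, against 14.9, 25.5 and 22.1 CPM in the short-title tumors, a log2 fold change of 1.31 ± 0.29 (SE; adjusted p = 0.367). CDT1, the partner of CDC6 in loading, was the exception among the 8. Its level in 8.3, 12.3 CPM, lay within the longer-title range of 6.09 to 22.9 CPM, while 2.1 and 15.2 had 2.02 and 1.48 CPM (log2 fold change 1.36 ± 0.75, SE).

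The MCM genes encode the ring-shaped helicase that opens the double strand. Of 7 identifiers tested, 6 were higher at an unadjusted p under 0.05, with a median log2 fold change of 2.04. MCM5 (ENSDARG00000019507) had 437.7, 151.1, 54.1, 183.4 and 179.5 CPM in the longer-title tumors, against 30.3, 25.6 and 20.9 CPM in the short-title tumors. At 2.98 ± 0.61 (SE; adjusted p = 0.349; DESeq2 adjusted p = 2.04e-04) its log2 fold change was the highest of the replication list, and tumor 4.3.1 was well above the other 4. MCM4 (ENSDARG00000040041) had 264.5, 224.5, 91.7, 233.9 and 197.8 CPM in the longer-title tumors, against 56.9, 48.6 and 42.8 CPM in the short-title tumors, a log2 fold change of 2.04 ± 0.35 (SE; adjusted p = 0.220). The symbol MCM6 stands for 2 identifiers. The abundant one, ENSDARG00000057683, had a log2 fold change of 1.87 ± 0.39 (SE) with groups that did not overlap. The other, ENSDARG00000033231, was at 0.630 to 3.01 CPM in the longer-title tumors and 0.493 to 4.77 CPM in the short-title tumors, with a log2 fold change of -0.35 ± 0.78 (SE). Reads shared between these copies could be split by the counting, so their separate levels are uncertain.

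Past the loading of the helicase, all functional groups of the list had medians above 1 on the log2 scale. Of 6 genes of helicase activation, 5 were higher at an unadjusted p under 0.05 (median 1.83), among them GINS1 (ENSDARG00000007624; 2.63 ± 0.53, SE, adjusted p = 0.317). MCM10, which acts in that same step, overlapped between the groups, at 6.19 to 9.54 CPM with longer titles and 2.40 to 7.52 CPM with short titles. All 6 genes of the polymerases and primase passed an unadjusted p of 0.05 (median 1.92), although PRIM1 overlapped between the groups. POLE (ENSDARG00000058533), the catalytic subunit of the leading-strand polymerase, had 71.2, 73.6, 16.7, 39.1 and 27.1 CPM in the longer-title tumors, against 8.98, 5.43 and 7.15 CPM in the short-title tumors (log2 fold change 2.67 ± 0.54, SE, adjusted p = 0.318). Its groups did not overlap, and 13.1.1 was nearest to the short-title tumors.

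Of 6 genes of the sliding clamp and the complex that loads it, 5 were higher at an unadjusted p under 0.05, with the lowest median of the 8 roles. PCNA (ENSDARG00000054155), the clamp itself, had 304.3, 277.3, 128.0, 305.2 and 177.2 CPM in the longer-title tumors, against 43.8, 43.3 and 77.0 CPM in the short-title tumors (log2 fold change 2.12 ± 0.38, SE, adjusted p = 0.228). The loader subunits RFC3 and RFC5 had smaller log2 fold changes of 0.70 ± 0.36 and 0.97 ± 0.36 (SE), and both overlapped between the groups. FEN1, which trims flaps of lagging-strand fragments, and LIG1, which joins them, had log2 fold changes of 2.13 ± 0.42 and 2.20 ± 0.62 (SE). In both genes every longer-title tumor was above every short-title tumor.

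The 5 genes of nucleotide supply and the 3 of chromatin behind the fork were all higher at an unadjusted p under 0.05, and in all 8 the groups did not overlap. TYMS (ENSDARG00000042894), the thymidylate synthase that makes the nucleotide found only in DNA, had 28.7, 24.1, 10.01, 24.0 and 13.9 CPM in the longer-title tumors, against 3.37, 3.57 and 2.66 CPM in the short-title tumors (log2 fold change 2.65 ± 0.42, SE, adjusted p = 0.220). RRM2 (ENSDARG00000078069), a subunit of ribonucleotide reductase, had a log2 fold change of 1.78 ± 0.43 (SE). UHRF1 (ENSDARG00000103409), which brings DNA methyltransferase to newly copied DNA, had 246.1, 180.6, 59.99, 151.1 and 162.0 CPM in the longer-title tumors, against 38.61, 23.5 and 32.8 CPM in the short-title tumors (log2 fold change 2.34 ± 0.44, SE, adjusted p = 0.263). The histone chaperone subunit CHAF1B had a log2 fold change of 2.50 ± 0.49 (SE).

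**Figure D1:**
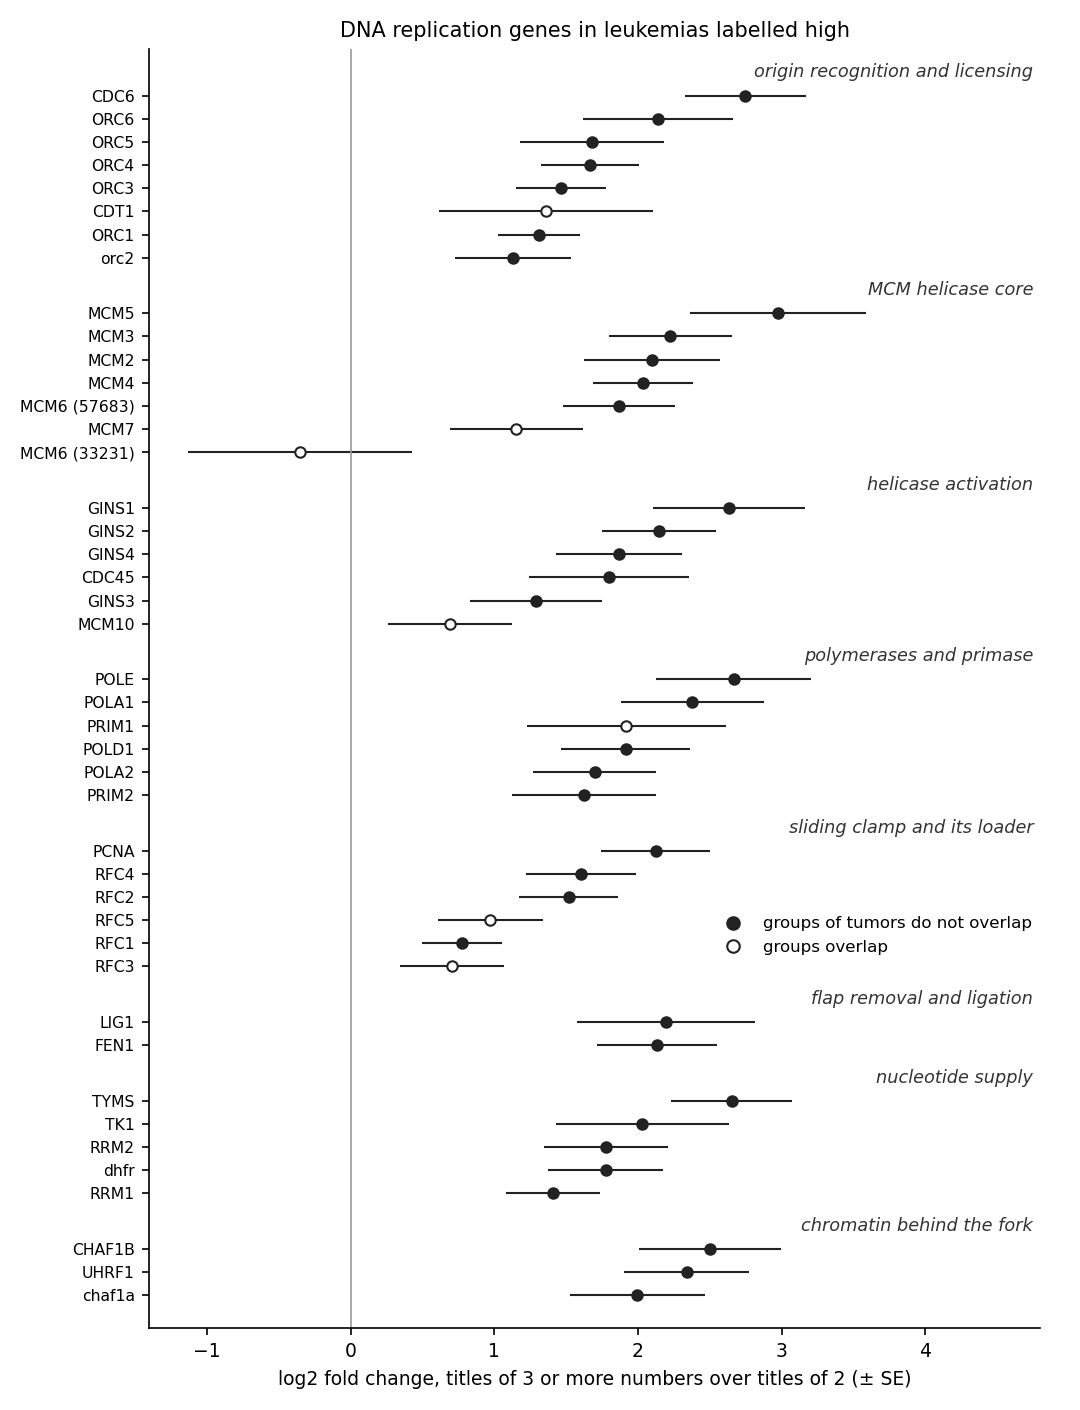
Log2 fold change of each DNA replication gene tested, longer titles over short, with its standard error over 5 against 3 tumors, grouped by role; filled points are genes whose groups did not overlap, open points those whose groups did, and a 5-digit number after MCM6 is the end of its identifier. Of 43 points 36 are filled and 42 lie above 0, from MCM5 at 2.98 down to an MCM6 identifier at -0.35.

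The longer-title tumors differed among themselves in how far they lay from the short-title tumors. The mean log2 CPM over the 43 replication genes was 5.56 in 4.3.1, 5.36 in 7.2.1, 4.16 in 13.1.1, 5.12 in 14.1.1.1 and 4.77 in 8.4.1.1.1, against 3.36 in 2.1, 3.26 in 8.3 and 3.17 in 15.2. Tumor 13.1.1 was the lowest of the longer-title tumors in 34 of the 43 genes, while 4.3.1 was the highest in 21 and 7.2.1 in 15. The 3 short-title tumors lay within 0.2 of each other, closer than the 5 longer-title tumors. Leaving out each tumor in turn, 33 (without 15.2) to 40 (without 13.1.1) of the 43 genes were higher at an unadjusted p under 0.05, and the median log2 fold change was 1.68 to 2.03. Without 8.3 the count was 39. Without the single-library tumors 14.1.1.1 and 8.4.1.1.1 the count was 37 and the median 1.93.

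The genes that control entry into S phase were divided. Of 24 G1 cyclins, kinases, inhibitors and E2F genes tested, 8 were higher at an unadjusted p under 0.05, 0 were lower, and in 9 every longer-title tumor lay above every short-title tumor. The median log2 fold change was 0.57 and DESeq2 called 6. Among all genes, 3.80% were higher at that level, 2.65% were higher without overlap and DESeq2 called 1.20% higher. The 8 were genes of the cyclin E and E2F step (CCNE1, CCNE2, CDK2, RB1, E2F1, E2F7 and e2f3) and CDKN2D, an inhibitor of cyclin D kinases at a low level. CDKN2D had 0 to 0.112 CPM in the short-title tumors, so it passed the expression filter only through longer-title tumors. Its place in both counts carries that selection. CCNE1 (ENSDARG00000098622), a cyclin E, had 4.06, 9.41, 6.23, 7.78 and 6.61 CPM in the longer-title tumors, against 0.561, 1.23 and 1.38 CPM in the short-title tumors (log2 fold change 2.68 ± 0.49, SE, adjusted p = 0.255). CDK2 (ENSDARG00000026577), the kinase that cyclin E activates, had 13.3, 15.3, 7.52, 13.4 and 8.82 CPM in the longer-title tumors, against 2.02, 1.95 and 2.71 CPM in the short-title tumors (log2 fold change 2.39 ± 0.38, SE, adjusted p = 0.220). In both genes the groups did not overlap. CCNE2 had a log2 fold change of 2.24 ± 0.40 (SE), and E2F1 and E2F7, an activating and a repressing E2F factor, had 1.75 ± 0.50 and 1.84 ± 0.54 (SE). RB1, which encodes the inhibitor of E2F factors, was also higher, at 1.24 ± 0.29 (SE). Cyclin D and its kinases overlapped between the groups. CCND1, a cyclin D, had a log2 fold change of -0.03 ± 0.91 (SE), and its kinases CDK4 and CDK6 had 0.08 ± 0.20 and 0.44 ± 0.51 (SE).

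DNA repair genes lay mostly on the same side. Of 33 tested, 19 were higher at an unadjusted p under 0.05, 0 were lower, 15 had groups that did not overlap, and all 33 had a log2 fold change above 0, with a median of 1.04. Some alternatives put 1 or 2 below 0, such as 1 with RLE normalization and 2 without 15.2. DESeq2 called 11. CHEK1 (ENSDARG00000104765), the kinase that answers stalled replication forks, had 7.68, 9.41, 2.40, 7.70 and 2.80 CPM in the longer-title tumors, against 0.898, 0.660 and 0.937 CPM in the short-title tumors (log2 fold change 2.85 ± 0.62, SE, adjusted p = 0.363). Tumors 13.1.1 and 8.4.1.1.1 were the lowest longer-title tumors for CHEK1, still above all short-title tumors. FANCD2 and FANCI, which act together at crosslinks, had log2 fold changes of 1.68 ± 0.38 and 2.46 ± 0.59 (SE). Without each tumor in turn, 15 to 21 repair genes were higher at an unadjusted p under 0.05.

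For the mitosis list the groups mostly overlapped, and its count moved with single tumors. Of 38 genes tested, 37 had a log2 fold change above 0 and the median was 1.13, but 7 were higher at an unadjusted p under 0.05 and 3 had groups that did not overlap. The shares of all genes were 3.80% higher at that level and 2.65% higher without overlap. Tumor 8.3 was the lowest of the 8 tumors in 38 of 38 genes. Averaged over the list, log2 CPM was 4.88, 5.09, 3.56, 4.15 and 4.01 in the longer-title tumors, against 3.57, 1.34 and 3.99 in the short-title tumors, so 2.1 and 15.2 lay within the range of the longer-title tumors and 8.3 did not. Without 8.3, 3 genes were higher at an unadjusted p under 0.05 and the median was 0.64. Without 15.2 these were 18 genes and 1.61. The count was 4 without 2.1 and 13 without 13.1.1, and limma-voom gave 27 with all 8 tumors.

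Single mitosis genes show both patterns. MYBL2 (ENSDARG00000032264), a transcription factor of late S phase and G2, had 47.7, 37.7, 10.8, 40.4 and 14.3 CPM in the longer-title tumors, against 6.90, 3.36 and 8.53 CPM in the short-title tumors (log2 fold change 2.27 ± 0.59, SE, adjusted p = 0.444), with no overlap. The condensin genes SMC4 and NCAPG, which compact chromosomes, had log2 fold changes of 1.55 ± 0.40 and 1.83 ± 0.55 (SE). The proliferation marker mki67 (ENSDARG00000091150) had 478.7, 400.1, 138.9, 276.2 and 278.1 CPM in the longer-title tumors, against 155.2, 30.1 and 209.5 CPM in the short-title tumors. With 13.1.1 below 2.1 and 15.2, the groups of mki67 overlapped (log2 fold change 1.26 ± 0.60, SE, adjusted p = 0.767).

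**Figure D2:**
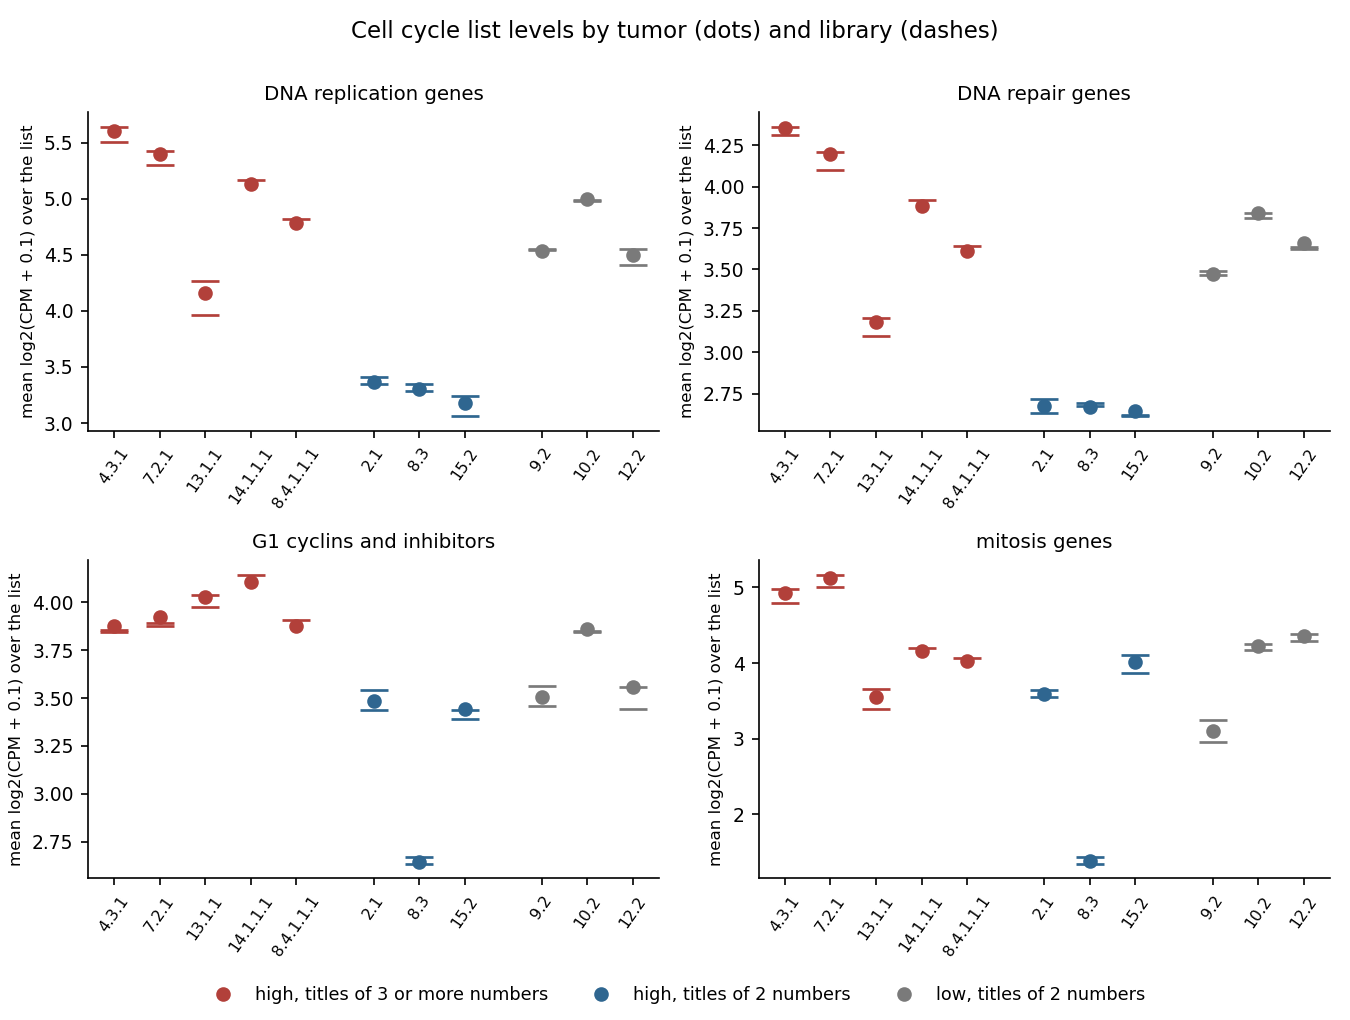
Mean log2 CPM of the DNA replication, DNA repair, G1 and mitosis lists in each tumor, on a scale set over all 11 tumors; dots are tumors and dashes their libraries, with longer titles left, short titles in the middle and low tumors right. For replication, the longer-title tumors lie at 4.16 to 5.60, the short-title tumors at 3.18 to 3.37 and the low tumors at 4.50 to 4.99, whereas for mitosis 8.3 lies at 1.38 and the other high tumors at 3.56 to 5.12.

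Replication levels in the low tumors lay with the longer-title high tumors. On the scale set over 11 tumors, the mean log2 CPM of the replication list was 4.16 to 5.60 in the longer-title tumors, 3.18 to 3.37 in the short-title tumors and 4.50 to 4.99 in the low tumors, whose titles are also of 2 numbers. In 29 of the 43 genes all 3 low tumors were above all short-title tumors. In 39 the low tumors overlapped the range of the longer-title tumors, and in 4 they were below it. MCM5, for example, was at 187, 288 and 83.8 CPM in low tumors 9.2, 10.2 and 12.2. No test was made of these levels. The low tumors carried B-lineage transcripts (PAX5, the B-cell identity factor, at 112 to 180 CPM, and at most 0.505 CPM in any high tumor). Tumor 12.2 carried T-lineage transcripts as well, with summed markers of 895 CPM for the T lineage and 502 CPM for the B lineage. The part of lineage in these levels was not tested.

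The list of serine, one-carbon and nucleotide synthesis and a list of chromatin suppressors showed fewer differences than the replication list. Their counts stand beside 3.80% of all genes higher and 2.94% lower at an unadjusted p under 0.05. Of 27 genes of serine, one-carbon and nucleotide synthesis, 5 were higher at an unadjusted p under 0.05 and 0 lower, with 24 above 0 and a median log2 fold change of 0.37. Without the single-library tumors 14.1.1.1 and 8.4.1.1.1, 17 of 26 tested were above 0, 3 were higher at that level and the median was 0.14. SHMT2 (ENSDARG00000104414), which makes one-carbon units in mitochondria, had 45.0, 37.8, 31.0, 50.3 and 38.5 CPM in the longer-title tumors, against 22.2, 28.0 and 21.7 CPM in the short-title tumors (log2 fold change 0.76 ± 0.22, SE, adjusted p = 0.529). The groups did not overlap, though the lowest longer-title tumor lay close to 8.3. Of 30 genes of the chromatin suppressor list, 3 were higher at an unadjusted p under 0.05 and 0 lower, all 3 DNA methyltransferases, and the list's median was 0.20. DNMT1 (ENSDARG00000030756), which copies methylation to the new strand after replication, had 558.9, 210.9, 57.6, 148.8 and 141.1 CPM in the longer-title tumors, against 37.7, 31.5 and 31.6 CPM in the short-title tumors (log2 fold change 2.74 ± 0.68, SE, adjusted p = 0.415; DESeq2 adjusted p = 0.00388). Every longer-title tumor was above the short-title tumors, 4.3.1 far above. The de novo methyltransferase genes dnmt3ba and DNMT3A (ENSDARG00000015566) had log2 fold changes of 1.27 ± 0.35 and 1.55 ± 0.51 (SE), the second with groups that overlapped. Another identifier of DNMT3A, ENSDARG00000005394, had 0.21 ± 0.42 (SE) and did not pass.

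Of the 8 higher genes with the smallest p, 5 bear on the cell cycle: CDC6, CDK2 and TYMS, described above, with CDCA7 and DTL. All 8 had an adjusted p of 0.220 and groups that did not overlap. GRIP1 and SLC25A21, described below, passed the expression filter only through the longer-title tumors. Their p and lack of overlap carry that selection. CDCA7 (ENSDARG00000077620), a chromatin protein linked to maintenance of DNA methylation and a target of E2F factors, had 79.0, 54.2, 27.4, 51.1 and 57.6 CPM in the longer-title tumors, against 12.1, 5.13 and 4.19 CPM in the short-title tumors (log2 fold change 2.92 ± 0.48, SE). DTL (ENSDARG00000023002), which targets CDT1 for destruction once replication has begun, had 13.7, 10.8, 3.74, 12.0 and 6.10 CPM in the longer-title tumors, against 1.07, 0.840 and 0.986 CPM in the short-title tumors (log2 fold change 3.26 ± 0.54, SE).

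The other three of these genes are not cell cycle genes by their known roles. GRIP1 (ENSDARG00000015053), a scaffold protein known from synapses, had 13.7, 25.5, 5.08, 6.78 and 6.27 CPM in the longer-title tumors, against 0.224, 0.180 and 0.444 CPM in the short-title tumors. Its log2 fold change was 5.33 ± 0.79 (SE). Among the low tumors it was at 0.172 and 0.423 CPM in 9.2 and 10.2 and at 8.70 CPM in 12.2, so its level differed among the low tumors. SLC25A21 (ENSDARG00000060564), a mitochondrial carrier of oxodicarboxylates, had 6.02, 5.88, 1.73, 3.85 and 3.56 CPM in the longer-title tumors, against 0.224, 0.0900 and 0.197 CPM in the short-title tumors (log2 fold change 4.61 ± 0.69, SE). phka1a (ENSDARG00000105159), a subunit of phosphorylase kinase, which starts glycogen breakdown, had 11.7, 14.9, 6.47, 18.6 and 25.8 CPM in the longer-title tumors, against 2.24, 0.990 and 0.986 CPM in the short-title tumors (log2 fold change 3.46 ± 0.57, SE). Both were higher still in the low tumors on the scale set over 11 tumors, at 12.0 to 15.1 CPM for SLC25A21 and 45.0 to 55.2 CPM for phka1a.

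The lower genes with the smallest p were mostly near 0 in the longer-title tumors and uneven among the short-title tumors. tmeff1b (ENSDARG00000056740), a transmembrane protein with follistatin-like domains, had 0.0436, 0.0420, 0, 0 and 0 CPM in the longer-title tumors, against 15.3, 8.31 and 2.86 CPM in the short-title tumors. Pooled, these were 2 counts against 608, a ratio of counts per depth, short titles over longer, of 375 (103.4 to 3103, 95% exact interval for counting error only). The fitted log2 fold change, -8.35 ± 0.90 (SE; adjusted p = 0.0986), depends on the prior count. CNTNAP5 (ENSDARG00000073920), a neurexin-family adhesion protein, had 1 pooled count against 279 (ratio 344.1, interval 61.26 to 13640), and LHX8 (ENSDARG00000002330), a homeobox factor of neurons, had 2 against 769 (ratio 474.3, interval 130.8 to 3923). In all 3 genes the groups did not overlap, but the expression filter fixed this in advance. It kept a gene only if at least 3 tumors passed a low level. A gene near 0 in all longer-title tumors therefore had to pass in all 3 short-title tumors. The p-values of these 3 genes carry the same selection. LHX8 was uneven among the short-title tumors, with 2.97, 0.570 and 34.4 CPM in 2.1, 8.3 and 15.2.

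MYT1 (ENSDARG00000102879), a zinc finger factor of neurons, had 0.0872, 0.252, 0.0958, 0 and 0 CPM in the longer-title tumors, against 11.7, 1.20 and 73.6 CPM in the short-title tumors (log2 fold change -8.07 ± 1.32, SE, adjusted p = 0.220). DVL3 (ENSDARG00000103462), a transducer of Wnt signals, had 0.916, 0.336, 0.240, 0 and 0.254 CPM in the longer-title tumors, against 28.1, 3.15 and 48.7 CPM in the short-title tumors (log2 fold change -6.16 ± 1.02, SE). GYPC (ENSDARG00000041546), a membrane sialoglycoprotein known from red cells, had 0.131, 0.0420, 0.431, 0 and 0 CPM in the longer-title tumors, against 35.6, 1.02 and 48.1 CPM in the short-title tumors (log2 fold change -7.65 ± 1.31, SE). In these 3 genes 8.3 was the lowest short-title tumor. The opposite held for MEIS2 (ENSDARG00000098240), a homeobox cofactor, where 2.1 was lowest, at 1.23 CPM, with 8.07 and 9.22 CPM in 8.3 and 15.2 and 0.0837 to 0.431 CPM in the longer-title tumors. The same filter kept MYT1, GYPC and MEIS2 from overlapping, as they too were near 0 in all longer-title tumors.

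One of the 8 was abundant in all tumors. calm1a (ENSDARG00000021811), a calmodulin gene, had 52.5, 44.2, 58.5, 65.4 and 47.1 CPM in the longer-title tumors, against 124, 221 and 118 CPM in the short-title tumors (log2 fold change -1.53 ± 0.25, SE, adjusted p = 0.220). The groups did not overlap. Calmodulin is encoded by several closely similar genes, so reads may be split among them and the level of this copy is uncertain.

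**Figure D3:**
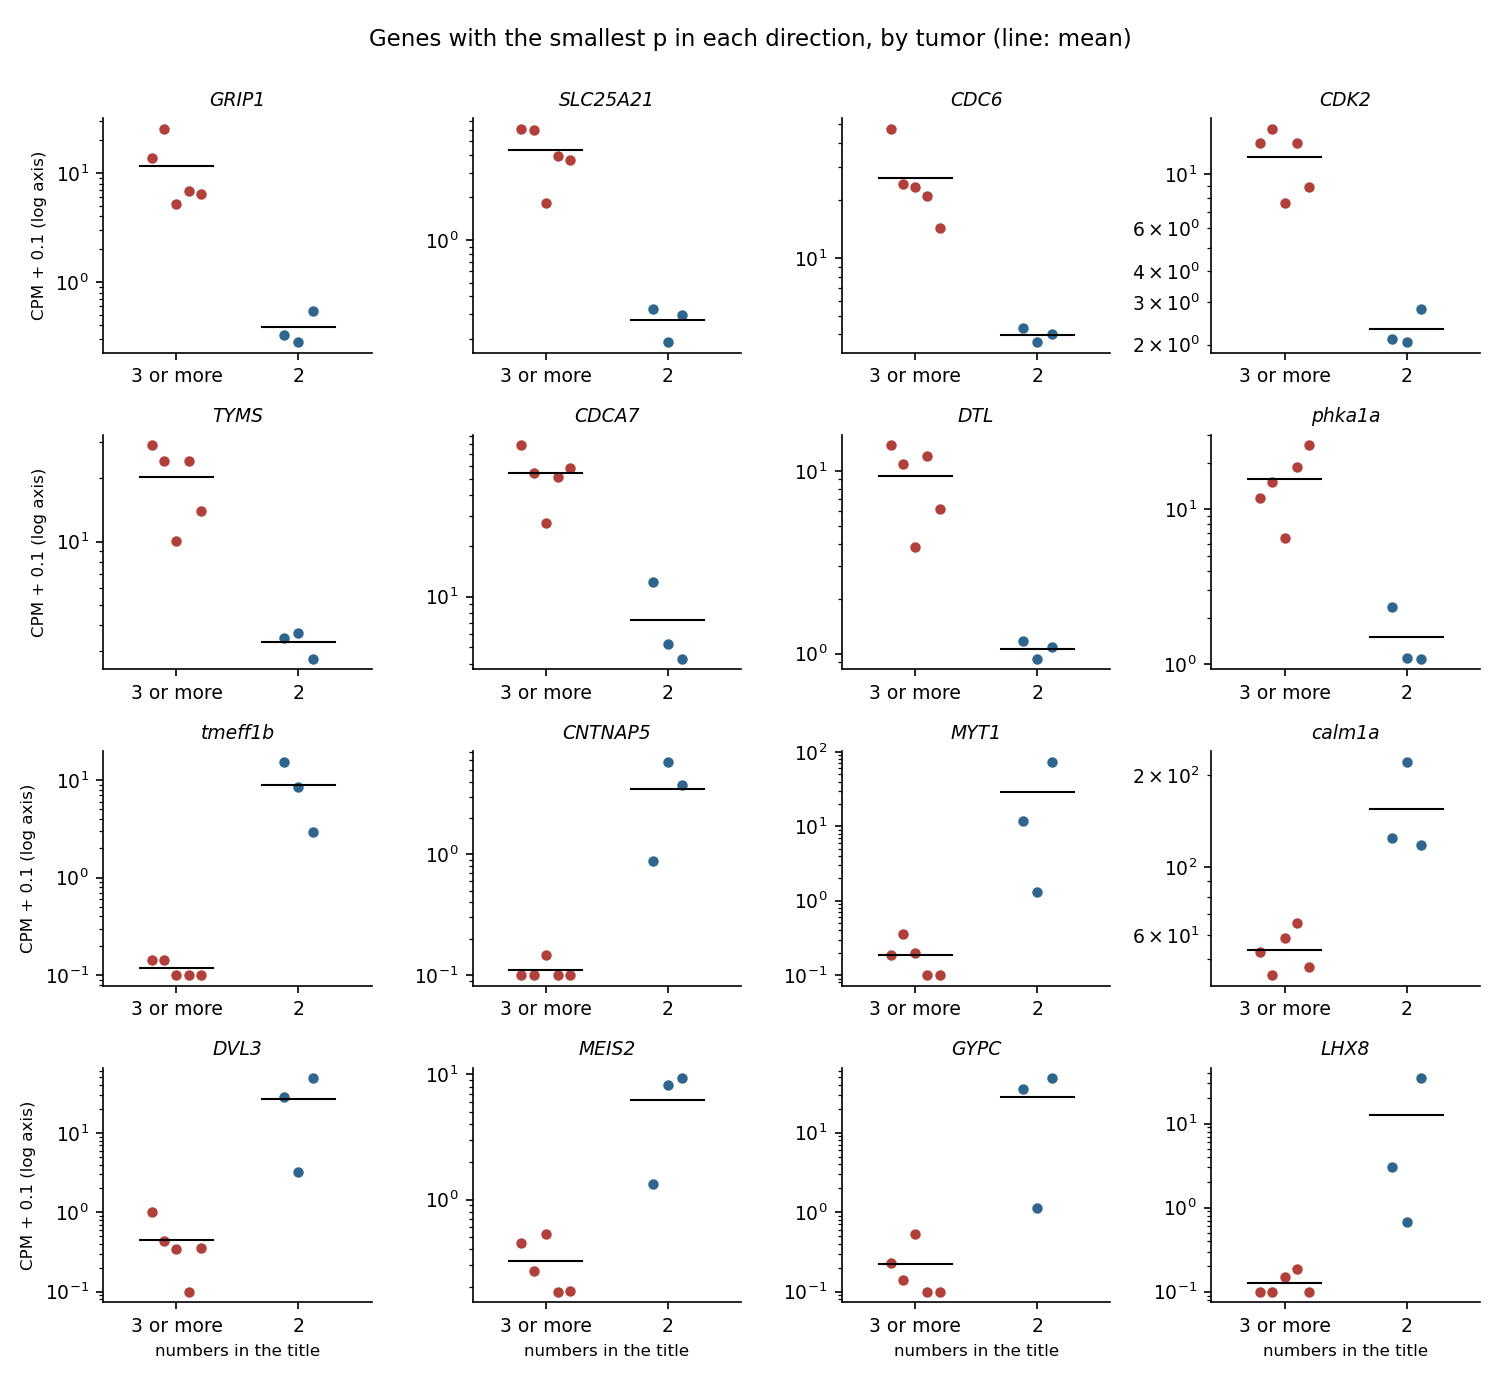
CPM + 0.1, on a log axis, of the 8 higher and 8 lower genes with the smallest p, in each of the 8 leukemias labelled high; longer-title tumors stand left and short-title tumors right in each panel, and lines are group means. The groups do not overlap in any of the 16 panels, and tmeff1b, CNTNAP5 and LHX8 sit at or near the floor of the scale in the longer-title tumors. For those genes and for MYT1, GYPC and MEIS2, the expression filter fixed the lack of overlap. GRIP1 and SLC25A21 passed that filter only through the longer-title tumors.

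The lists of the T-cell receptor and its signalling, antigen presentation, stem and progenitor cells and the MYC family had median log2 fold changes of -0.03 to 0.24. Of 9 genes of the T-cell receptor and its coreceptors, 21 of its signalling, 15 of antigen presentation, 12 of stem and progenitor cells and 13 of the MYC family and its partners, 0 passed an unadjusted p of 0.05 in either direction by edgeR, and DESeq2 called 0 in these lists. Over all genes tested, 3.80% were higher and 2.94% lower at that level. A count of 0 in lists of this size is near those shares and does not show that the lists were unchanged. ZAP70, a kinase that signals from the receptor, had 268 to 344 CPM in the longer-title tumors and 344, 905 and 277 CPM in 2.1, 8.3 and 15.2 (log2 fold change -0.76 ± 0.36, SE). Without 8.3, its log2 fold change was -0.06. Of 20 T-lineage regulators 1 gene, sox13, was higher at an unadjusted p under 0.05, a count near the share of all genes. sox13 passed the expression filter only through longer-title tumors. il7r (ENSDARG00000078970), the receptor for the T-cell growth factor interleukin-7, had 51.1, 15.0, 38.8, 32.5 and 57.9 CPM in the longer-title tumors, against 87.8, 91.5 and 69.1 CPM in the short-title tumors. Its groups did not overlap, at a log2 fold change of -1.09 ± 0.38 (SE, adjusted p = 0.629). It was the 1 lower gene of 26 in the JAK-STAT and cytokine receptor list at an unadjusted p under 0.05, and STAT3 was the 1 higher gene, at 0.65 ± 0.28 (SE), also with groups that did not overlap. Both counts are near the shares of all genes and are no result about the list.

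Some genes of lymphocyte development varied widely between tumors. NOTCH1 (ENSDARG00000052094), the receptor that directs T-cell fate, had 95.3, 1.68, 1.68, 22.3 and 5.00 CPM in the longer-title tumors, against 0.561, 0.780 and 3.40 CPM in the short-title tumors. dntt (ENSDARG00000104792), which adds bases at recombination joints, had 1.96, 0.0840, 0.0479, 18.5 and 21.2 CPM in the longer-title tumors, against 0.224, 0 and 0.0493 CPM in the short-title tumors. Both were higher at an unadjusted p under 0.05, with log2 fold changes of 4.0 ± 1.59 for NOTCH1 and 6.58 ± 2.33 for dntt (SE), and the DESeq2 adjusted p was 0.0458 for NOTCH1 and 0.0517 for dntt. Both overlapped between the groups, NOTCH1 being highest in 4.3.1 and 14.1.1.1 and dntt in 14.1.1.1 and 8.4.1.1.1. Only longer-title tumors brought dntt past the expression filter, so its p carries that selection. NOTCH1 was the 1 gene of 23 in the NOTCH pathway list, and dntt 1 of the 2 antigen receptor recombination genes, of 12, higher at that level, with 0 lower. Among all genes tested 3.80% were higher, so 1 of 23 is near that share and no result about the list. The recombination list was too short for its count to be read. Another identifier of NOTCH1, ENSDARG00000103554, had 9.51, 1.81, 10.9, 26.5 and 57.8 CPM in the longer-title tumors. In the short-title tumors it had 17.8, 1.05 and 8.33 CPM. Its log2 fold change was 1.24 ± 1.09 (SE), it did not pass at that level, and it was highest in 8.4.1.1.1. RAG1 (ENSDARG00000052122), the recombinase, had 4318, 7693, 3149, 708 and 3294 CPM in the longer-title tumors, against 5735, 1525 and 7145 CPM in the short-title tumors, with no order between the groups (log2 fold change -0.33 ± 0.68, SE).

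In the lists of protein synthesis and energy metabolism few genes passed an unadjusted p of 0.05. All 74 cytosolic ribosomal protein genes had a log2 fold change below 0, with a median of -0.23, but 0 passed an unadjusted p of 0.05 by edgeR, DESeq2 called 0, and without 2.1 56 of the 74 were above 0 with a median of 0.05. Of 41 genes of nucleolar ribosome biogenesis, 38 were above 0, with a median of 0.30, and 1 was higher at an unadjusted p under 0.05. Of 43 nuclear-encoded genes of oxidative phosphorylation, 2 were lower, among them SDHA (ENSDARG00000016721), a subunit of succinate dehydrogenase, with 166, 123, 160, 202 and 247 CPM in the longer-title tumors, against 253, 417 and 316 CPM in the short-title tumors. SDHA did not overlap between the groups, with 8.4.1.1.1 close to 2.1 (log2 fold change -0.87 ± 0.26, SE). Of 30 glycolysis genes 2 were higher and 2 lower, and of 22 interferon response genes 2 were higher and 0 lower, at an unadjusted p under 0.05. The lists of stress and heat shock genes (28 tested) and of neuronal genes (13 tested) had 2 lower genes each. Those of p53 targets (25 tested), the BCL2 family (16), early response genes (27) and splicing factors (41) had 1 lower gene each, TP53INP1, bik, JUN and HNRNPU. The first 3 of these rested on 8.3, and their groups overlapped. In 2.1, 8.3 and 15.2, TP53INP1 had 22.3, 127 and 14.2 CPM, bik 7.30, 110 and 10.1 CPM, and JUN 165, 955 and 113 CPM. Without 8.3 their log2 fold changes were -0.49, -0.63 and -0.25, against -2.04, -2.92 and -1.81 with all 8 tumors. The PI3K and AKT pathway (31 tested) had 1 higher gene, akt1 (log2 fold change 1.27 ± 0.53, SE). Over all genes tested, 2.94% were lower and 3.80% higher at that level. A single gene in a list of this size is therefore no result about the list. The lists of proteasome (40 tested), cholesterol synthesis (21), homing (18), B-cell (13), NK-cell (3) and HOX genes (2) had 0 in either direction. DESeq2 called 0 there. The NK-cell and HOX lists had too few genes tested for a count of 0 to be informative.

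Summed markers of other cell types overlapped between the title groups. Summed neutrophil markers were at 20.7 to 224 CPM in the longer-title tumors and 58.9 to 318 CPM in the short-title tumors, and macrophage markers at 30.8 to 303 and 39.1 to 520 CPM, with the macrophage gene MFAP4 at 0 in all 8. Erythroid markers summed to 5.72 to 53 CPM with longer titles and 2.47 to 31.8 CPM with short titles, and epithelial markers to 4.27 to 56.7 and 18.6 to 45.2 CPM. Kidney tubule markers were at 126 to 521 CPM with longer titles and 106 to 313 CPM with short titles. Nearly all of that sum was a single gene, SLC20A1, with 520 of 521 CPM in 7.2.1 and 312 of 313 CPM in 8.3. The sum therefore follows that gene and does not measure kidney tubule RNA. Of the neutrophil, macrophage, erythroid, thrombocyte, endothelium and stroma, epithelium, kidney tubule, muscle and liver lists, 0 members passed an unadjusted p of 0.05 by edgeR and DESeq2 called 0. With 2 thrombocyte, 4 kidney tubule, 1 muscle and 3 liver genes tested, a count of 0 is not informative for those lists. The other lists, of 7 to 16 genes, are also short beside the shares of all genes, 3.80% higher and 2.94% lower. A log2 fold change above 0 held for 1 of 16 macrophage and 3 of 10 neutrophil genes. The same held for 1 of 7 endothelium and stroma genes and 1 of 9 epithelium genes, but for 9 of 11 erythroid and 3 of 4 kidney tubule genes. The part of other cells in the results above was not tested further.

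**Figure D4:**
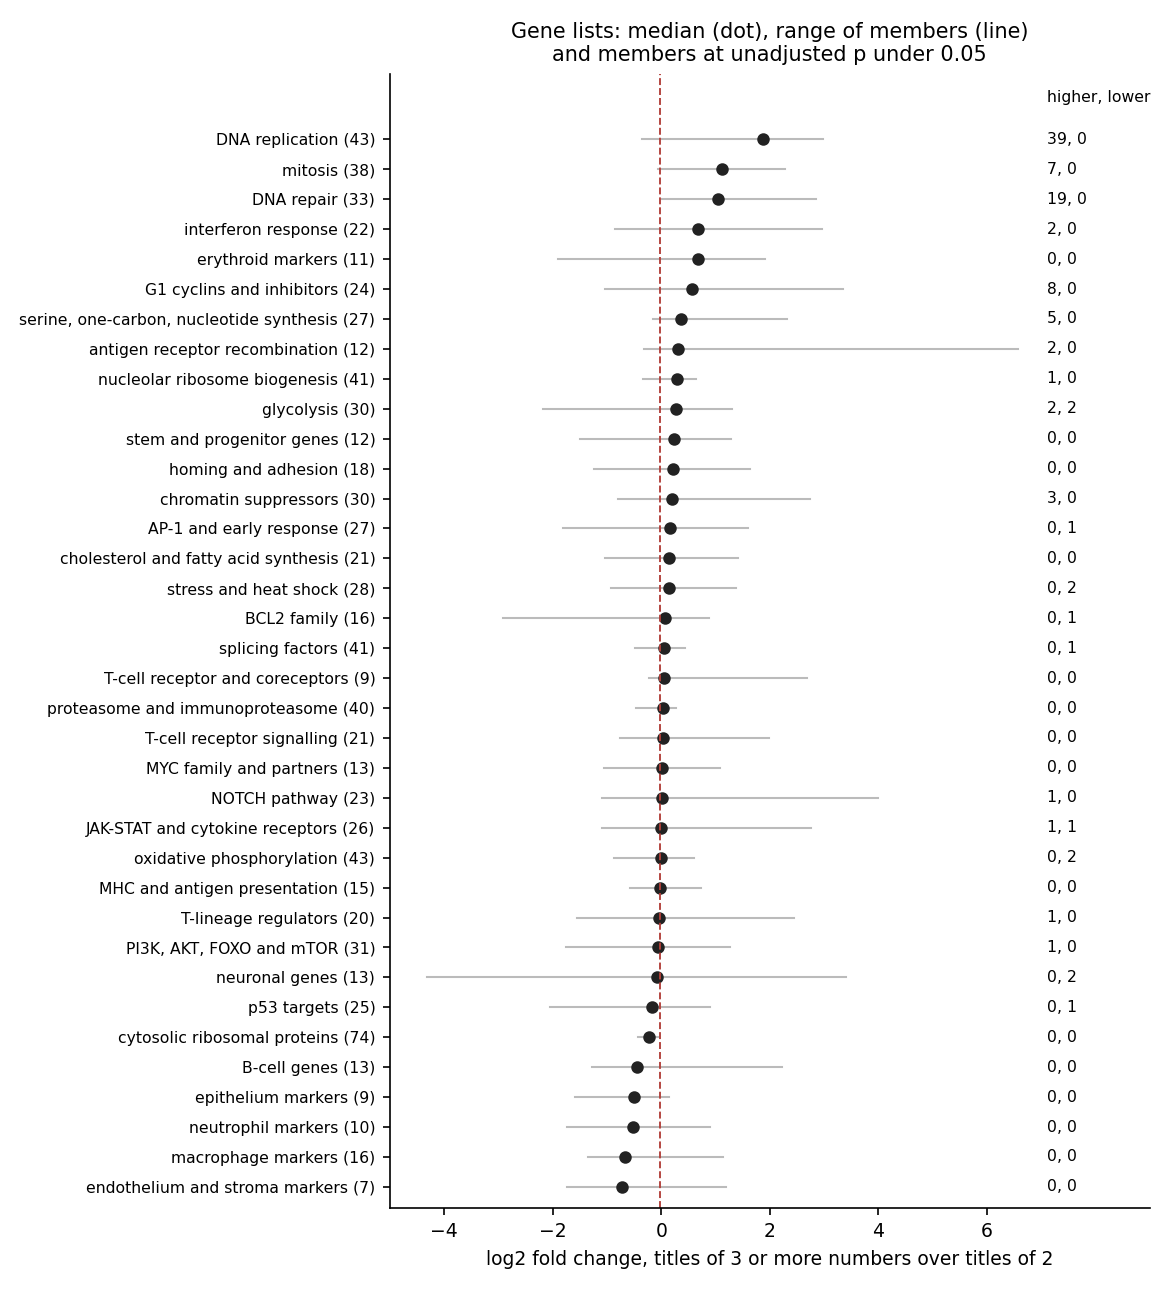
Median log2 fold change of each gene list with at least 5 genes tested, longer titles over short, with a line for the range of its genes, the number tested in brackets, and the counts of genes higher and lower at an unadjusted p under 0.05 at the right. DNA replication, with 39 higher, mitosis, with 7, and DNA repair, with 19, have medians above 1. The dashed line is the median of all genes tested, -0.03.

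The genes of the mitochondrial genome lay on the lower side. Of 11 tested, all had a log2 fold change below 0, with a median of -0.52, and 5 were lower at an unadjusted p under 0.05. In 4 the groups did not overlap. Among all genes tested, 2.94% were lower at that level and 1.53% were lower without overlap. The number below 0 was 10 with limma-voom, 10 without 15.2 and 10 without 14.1.1.1 and 8.4.1.1.1. Without 15.2, 2 genes were lower at that level and the median was -0.42. MT-ND2 (ENSDARG00000063899), a subunit of respiratory complex I, had 229.4, 231.8, 238.4, 175.6 and 163.6 CPM in the longer-title tumors, against 367.9, 432.3 and 437.1 CPM in the short-title tumors (log2 fold change -0.99 ± 0.20, SE, adjusted p = 0.318; DESeq2 adjusted p = 0.00190). Over all 11, mitochondrial transcripts took 0.944%, 1.13%, 1.11%, 0.818% and 0.617% of counts in the longer-title tumors, against 1.24%, 0.955% and 1.33% in the short-title tumors, which overlap. Without the single-library tumors 14.1.1.1 and 8.4.1.1.1, the median was -0.34 and 1 gene was lower at an unadjusted p under 0.05. With 1 library of each tumor, which makes library number equal, all 11 were below 0, 4 were lower at an unadjusted p under 0.05 and the median was -0.55.

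Title length was also taken as a number, 2 to 5, in the same 8 tumors, so the values stand beside the first comparison and are no separate evidence. With 1 tumor each at 4 and 5 numbers, 0 genes were called by edgeR (0.00%; smallest adjusted p = 0.162), and DESeq2 called 52. At an unadjusted p under 0.05, 269 genes were higher with each added number (1.77%) and 416 were lower (2.73%). Of the 43 replication genes, 8 were higher in this fit, against 39 in the comparison of 2 groups. Their mean level was highest in 4.3.1 and 7.2.1, with 3 numbers, and 14.1.1.1 and 8.4.1.1.1 lay between these and 13.1.1. Of the 41 nucleolar genes 12 were higher, and of the 11 mitochondrial genes 8 were lower. The tumors with 4 and 5 numbers, 14.1.1.1 and 8.4.1.1.1, are also the only single-library high tumors. In this fit title length and library number cannot be told apart at those lengths. Without these tumors, the nucleolar median log2 fold change between the 2 groups was 0.06, against 0.30 with all 8.

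The genes with the smallest p in that fit were tmeff1b, GYPC, CNTNAP5 and MYT1, given above, followed by map2, CRACD and FAM117B among genes with a plain symbol. The filter by group let tmeff1b, GYPC, CNTNAP5 and MYT1 in only through the short-title tumors. Their p in this fit carries that selection too. map2 (ENSDARG00000055052), a microtubule protein of neurons, had 12.2, 19.1, 7.33, 4.35 and 2.88 CPM in the longer-title tumors, against 26.0, 19.1 and 46.7 CPM in the short-title tumors, a log2 change of -1.20 ± 0.21 (SE) per added number. FAM117B (ENSDARG00000074921), of little known function, had 3.45, 3.45, 1.20, 0.670 and 0.254 CPM in the longer-title tumors, against 5.22, 42.1 and 10.1 CPM in the short-title tumors, a log2 change of -2.23 ± 0.41 (SE) per added number. CRACD (ENSDARG00000011602), a regulator of actin capping, had 0.523, 1.39, 1.92, 0.418 and 0.0848 CPM in the longer-title tumors, against 2.53, 5.13 and 10.5 CPM in the short-title tumors, or -2.0 ± 0.36 (SE) per number. MT-ND2 had -0.48 ± 0.10 (SE) per number. In all 4 genes the tumor with 5 numbers was the lowest of the 8, and 8.3 was the highest for FAM117B. The low tumors, with titles of 2 numbers, had 0.0975 to 0.494 CPM of map2, 0 to 3.17 CPM of FAM117B and 4.88 to 108 CPM of CRACD. MT-ND2 was at 152 to 335 CPM there.

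**Figure D5:**
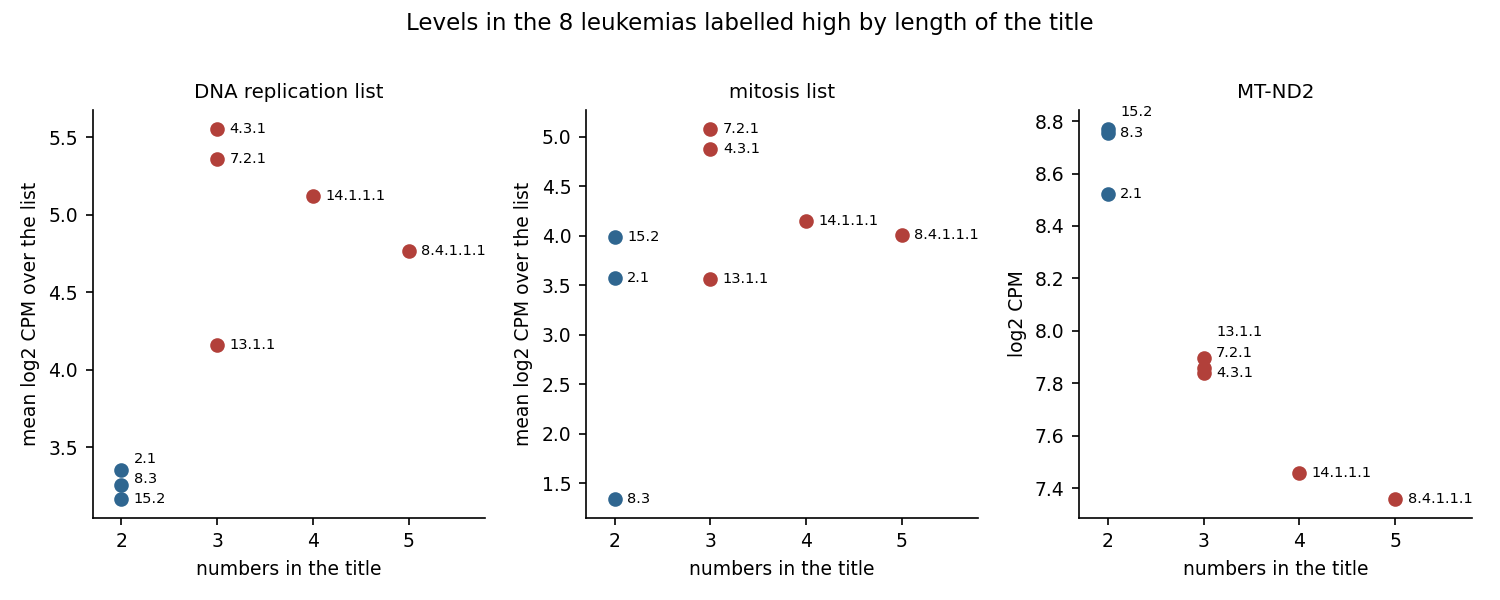
Mean log2 CPM of the replication and mitosis lists and log2 CPM of MT-ND2 against the count of numbers in the title of each high tumor, longer titles in red and short titles in blue. The replication level is 3.17 to 3.36 at 2 numbers, 4.16 to 5.56 at 3, 5.12 at 4 and 4.77 at 5, while MT-ND2 is lowest at 4 and 5 numbers, the single-library tumors.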

How the data were processed

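Bulk polyadenylated RNA of zebrafish leukemias was measured in 20 libraries, of which 14 labelled high for self-renewal were compared. The authors deposited raw counts per gene (32105 Ensembl genes) with no normalization. The build GRCz10 and the tools STAR, Picard and featureCounts are named, per the submitters' processing notes. The sources used here give no version, annotation release or strand setting, so antisense and overlapping genes may share reads. Symbols came from a table of gene names, for 26269 identifiers (81.82%), and the count table gives no coordinates.

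Libraries of a tumor were summed after checking that none was a copy of another (6 pairs, correlation of log2 CPM 0.9845 to 0.9951, chi-square per degree of freedom 2.307 to 13.1). Tests used edgeR 4.0.16 in R 4.3.3: filterByExpr by group, TMM factors, glmQLFit and glmQLFTest, two-sided, Benjamini-Hochberg threshold 0.05 over all genes tested. The SE of a log2 fold change came from the F statistic. CPM are counts scaled to the TMM-adjusted library size, log2 CPM used a prior count of 2, and the scale over 11 tumors log2(CPM + 0.1). Groups that do not overlap have every tumor of one above every tumor of the other. Single values per tumor used exact permutation tests. Intervals cover counting error only. The edgeR comparison of the 2 groups was tried on simulated data. DESeq2 1.42.0 and limma 3.58.1 were alternatives, with other normalizations, filters, units and left-out tumors, 23 in all.

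The members and the 42 gene lists were chosen with earlier results of these data known. Genes are named by a rule: with no call, the 8 genes of smallest p in each direction that have a symbol and average at least 1 log2 CPM where they are higher, 1 gene of each list by p, and 3 further genes by the trend. Other members of a list are named as examples of their role, chosen after their values were seen. Symbols in capitals can cover several paralogs.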

Additional observations from a re-analysis of the deposited data

Results flagged for a closer look

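Among the 5 longer-title tumors, 7 of 105 values had 1 tumor far from the others; chance sets about 1 in 20 such values apart. Of these, 5 were in 13.1.1. It had 20431 genes detected at a common depth (18418 to 18940 in the others), and mean log2 CPM of 1.35 for thrombocyte markers (-2.43 to -1.95) and 2.58 for epithelium markers (-1.16 to -0.24). TP53INP1, a p53 target, was at 4.90 log2 CPM in 13.1.1 (2.92 to 3.45 in the others). CNTNAP5 was at -2.77 in 13.1.1, a single count, and at the floor of -3.35 in the others. In 8.4.1.1.1 the liver transcript apoa1b was at -0.22 log2 CPM (-3.35 to -2.77 in the others). In 14.1.1.1 the stress and heat shock list had a mean log2 CPM of 7.08 (5.98 to 6.27 in the others). 13.1.1 was also the longer-title tumor nearest to the short-title tumors in most replication genes. Without it, 40 of the 43 were higher at an unadjusted p under 0.05.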

How the results depend on the processing

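The direction of the replication, repair and mitosis medians held under all 23 alternatives, but the number of calls depended on the unit and the tool. Genes called numbered 0 by edgeR, 264 by DESeq2 (190 higher, 74 lower), 1 with all genes that had a count (tmeff1b), 1 at an adjusted p under 0.1, and 0 to 2 with each tumor left out in turn (2, NTRK3 and KCND3, without 8.3). Without 8.3 and 8.4.1.1.1 together the call was 1 (NTRK3). The replicate number in the labels marks a library within its tumor and pairs nothing else. With libraries as units, 405 genes were called with the replicate block and 535 with the block left out, fits that treat libraries of a tumor as independent, and 4 by limma-voom with the tumor as a random block (NASP, CDCA7, PCNA and calm1a). Genes at an unadjusted p under 0.05 numbered 1027, against 1648 with all genes that had a count, 1566 by DESeq2, 2271 with the replicate block, 2510 with the block left out and 640 without 14.1.1.1 and 8.4.1.1.1. Of the mitosis genes, 7 were higher at that level, against 12 with all genes that had a count, 14 by DESeq2, 27 by limma-voom, 22 with the replicate block, 24 with the block left out, 34 with a random block, 4 without 8.3 and 8.4.1.1.1, and 3 to 18 with each tumor left out. The trend gave 0 calls by edgeR and 52 by DESeq2 (11 higher, 41 lower). Of 1301 values of 59 named genes under alternatives, 1218 kept direction and call, 76 passed the threshold as well, and 7 in 5 genes with low or uneven levels changed sign. These were EBF1 (2.23, and -0.31 without 14.1.1.1 and 8.4.1.1.1), b2ml (-0.57, 0.074 without 8.3, and -0.90 to 0.074 over left-out tumors), c1qc (-1.12, 0.022 by limma-voom, 0.34 without 15.2, and -2.02 to 0.34 over left-out tumors), blvrb (-1.91, 0.78 without 8.3, -2.41 to 0.78 over left-out tumors, and 0.83 without 8.3 and 8.4.1.1.1) and THBS1 (-0.84, and 0.18 without 8.3 and 8.4.1.1.1). The cause of these shifts was not tested. With 5 against 3 tumors and a spread between tumors above counting error, the number of tumors limits the precision. For genes with few counts in a group, such as tmeff1b and CNTNAP5, counting error is wide as well.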
